A study of Mus musculus with 95 samples.

Results

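The 18 astrocyte libraries of alcohol-dependent mice were split by their level of H2-D1, a classical MHC class I heavy chain, into the 9 highest (called high) and the 9 lowest (called low) libraries, out of 95 libraries in the series. Levels are in CPM, the count of a gene scaled so that all libraries have the same total. The libraries are RNA from the nucleus accumbens of B6;FVB mice that carry the transgene Tg(Aldh1l1-EGFP/Rpl10a)JD130Htz, in which the astrocyte gene Aldh1l1 drives a ribosomal protein fused to EGFP. Pulling down the tagged ribosomes with their translated RNA (TRAP) yielded 1 IP library per mouse. RNA of the same tissue before pull-down is its input library. Every mouse of the series carries the transgene. Dependent mice (18 IP and 18 input libraries) received 5 rounds of CIE, chronic intermittent ethanol, together with 2BC, voluntary 2-bottle-choice drinking. Non-dependent mice (13 IP, 15 input) had 2BC alone, and naive mice (15 IP, 16 input) received no ethanol. Each mouse is 1 animal of a stated sex and batch, and the labels give no ages.

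MHC class I molecules carry peptides made by the proteasome to the cell surface, where CD8 T cells read them. TAP transporters bring the peptides into the endoplasmic reticulum, and interferon replaces proteasome subunits by an inducible set that includes Psmb8. MHC class II molecules are read by CD4 T cells and are guided by the invariant chain, Cd74, which in healthy brain is mostly a gene of macrophages and microglia. Interferons act through JAK kinases, factors such as Stat2 and Irf9, and secondary factors such as Irf7. Their targets include both MHC systems and a family of GTPases (Irgm1, Irgm2, Igtp, the guanylate-binding proteins) that act against intracellular microbes.

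The dependent libraries covered a range of H2-D1 levels, called the gradient below, and were not tested for clusters. Among high mice the IP level was 1369 CPM in I11 (male, batch I), 1099 in I02 (female, batch I), 1073 in I05 (female, batch I), 461 in J05 (male, batch J), 398 in L25 (female, batch L), 295 in I13 (female, batch I), 257 in I07 (male, batch I), 247 in J09 (female, batch J) and 205 in I09 (female, batch I). Among low mice it was 156 in I15 (male, batch I), 151 in L26 (male, batch L), 151 in J06 (female, batch J), 123 in L29 (female, batch L), 123 in K18 (male, batch K), 112 in G22 (female, batch G), 96.4 in K21 (male, batch K), 75.2 in J10 (male, batch J) and 74.8 in C17 (female, batch C). The split falls between I09 at 205 and I15 at 156, and the widest step lies inside the high group, between 461 and 1073 CPM. The low mice overlapped the 13 non-dependent libraries, which ran from 36.0 to 160 CPM (median 97.6), and the upper part of the 15 naive libraries, which ran from 30.8 to 108 CPM (median 73.1). The groups were chosen by these IP values, which are given without a test.

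State and batch are strongly entangled. Batch I gave 6 high mice and 1 low mouse, batch J gave 2 and 2, batch L gave 1 and 2, while the 2 mice of batch K and the single mice of batches C and G were all low. Only batches I, J and L hold both states, 14 mice in all, and the 3 highest libraries all belong to batch I. Sex was 6 females and 3 males among high mice and 4 females and 5 males among low mice. Differences called fitted below come from 1 model with terms for batch, sex and state, so mice of batches K, C and G add nothing direct to the state difference. I15 is the only low mouse of batch I, so a fit without it loses the contrast inside that batch, and list medians that moved most are also given without the mouse concerned. In the same 3 batches the difference in mean log2(CPM + 0.5) of IP H2-D1 was 1.79 in batch I, 1.66 in batch J and 1.54 in batch L.

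**Figure D1:**
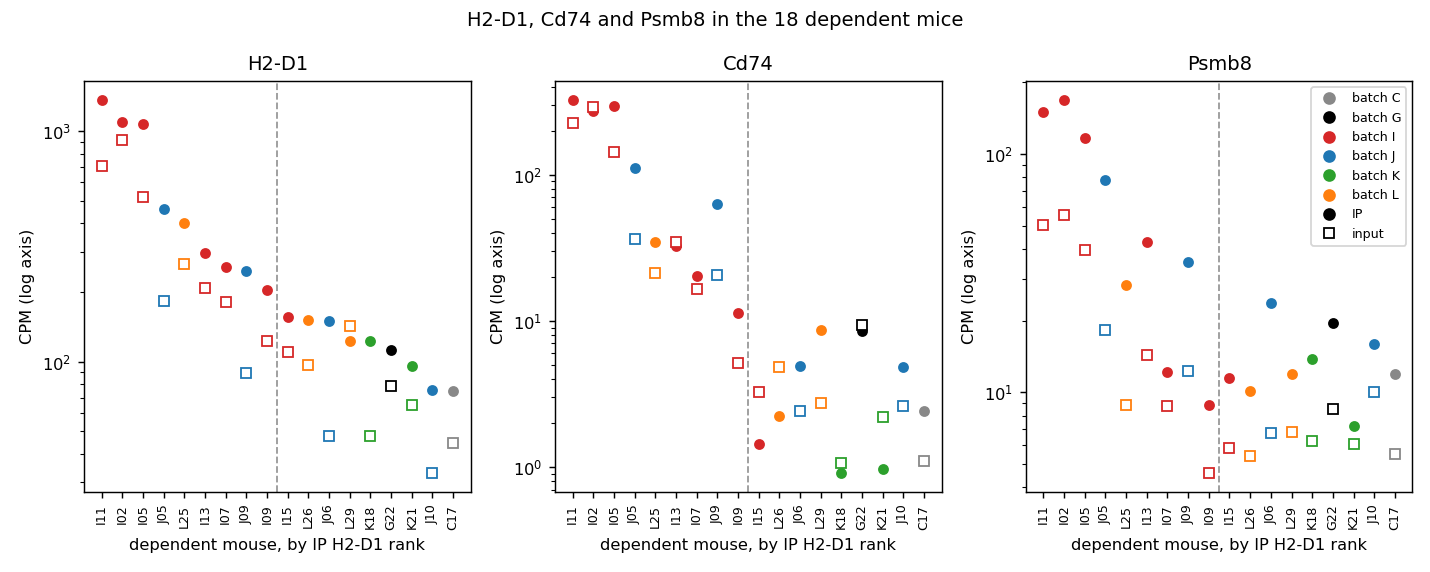
CPM (log axis) of H2-D1, Cd74 and Psmb8 in the IP (filled circles) and input (open squares) library of each dependent mouse, ordered by IP H2-D1 and coloured by batch. The dashed line marks the split between I09 and I15. Cd74 separates the 2 sets of IP libraries, while Psmb8 of the high mice I09 (8.81 CPM) and I07 (12.2 CPM) lies among the low mice.

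Of the other markers that name the state, Cd74 followed the split and Psmb8 did so only in part. IP Cd74, in the order of mice above, was 326, 272, 295, 111, 34.8, 32.6, 20.4, 63.4 and 11.3 CPM in the high mice and 1.44, 2.24, 4.95, 8.65, 0.90, 8.49, 0.97, 4.84 and 2.43 CPM in the low mice. All 9 high libraries lay above all 9 low libraries, and J09 stood above 3 mice with more H2-D1. IP Psmb8, an inducible proteasome subunit, was 150, 168, 117, 77.6, 28.1, 42.8, 12.2, 35.2 and 8.81 CPM in the high mice and 11.5, 10.1, 23.7, 11.9, 13.8, 19.5, 7.23, 15.99 and 11.95 CPM in the low mice. The 2 sets overlapped, and the high mouse had the higher value in 69 of the 81 high-low pairs. The fitted IP log2 difference was 1.77 for H2-D1, 4.31 for Cd74 and 1.79 for Psmb8. Non-dependent mice had at most 2.85 CPM of IP Cd74 and naive mice at most 3.03, so 4 of the low mice, J06, L29, G22 and J10, also exceeded every control library in this gene.

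The input libraries did not take part in the ranking, although they come from the same mice and hold astrocyte RNA too. Input H2-D1, in the same order, was 706, 911, 519.8, 183, 267, 208, 181, 89.8 and 123 CPM in the high mice and 110.5, 96.5, 47.8, 143, 47.5, 78.9, 65.0, 32.9 and 44.6 CPM in the low mice. J09 and I09 fell inside the range of the low mice, and the high value was larger in 77 of 81 pairs. The test across all genes was edgeR quasi-likelihood with batch, sex and state, Benjamini-Hochberg adjusted. It put input H2-D1 1.58 ± 0.56 log2 units higher (SE, 9 against 9 mice), at an adjusted p of 0.846. The low mice of batches K, C and G add nothing direct to this value, and H2-D1 is the gene that set the split. Input Cd74 was 227, 291, 143, 36.1, 21.2, 34.8, 16.5, 20.7 and 5.15 CPM against 3.26, 4.85, 2.43, 2.74, 1.07, 9.42, 2.20, 2.63 and 1.10 CPM. Only I09, with 5.15 CPM, lay under a low mouse (G22), and edgeR gave 3.66 ± 1.15 (log2, SE) at an adjusted p of 0.846. For Psmb8 the edgeR fold change in input was 1.10 ± 0.68 (SE, log2) with an adjusted p of 0.855.

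Regulatory sequences of some genes that follow the split are shown here for 1 feature, the short element that interferon-activated factors bind. They were picked for it. Of 29 such genes with a window, the 5 with a match to this element are shown, beside Lca5 without one. The windows of H2-D1, Tap1, Irf7 and Irf9, among others not shown, hold no match to it. Each line is the RefSeq window (GRCm38.p6) from 250 bases before to 50 after a gene start, 5′ to 3′ on the gene's strand. Capitals mark 2 motifs searched on both strands, GAAA, any 2 bases and GAAA again (the core of the interferon-stimulated response element, ISRE) and TTCNNNGAA (the core of the STAT-binding GAS element).

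Irgm2 (chr11:58214727-58215026, plus strand): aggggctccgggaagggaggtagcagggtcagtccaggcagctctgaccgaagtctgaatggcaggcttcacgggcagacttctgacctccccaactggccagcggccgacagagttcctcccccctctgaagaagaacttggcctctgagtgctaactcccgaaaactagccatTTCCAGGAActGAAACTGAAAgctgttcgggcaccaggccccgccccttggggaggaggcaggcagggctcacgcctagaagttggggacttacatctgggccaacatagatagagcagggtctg

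Igtp (chr11:58199306-58199605, plus strand): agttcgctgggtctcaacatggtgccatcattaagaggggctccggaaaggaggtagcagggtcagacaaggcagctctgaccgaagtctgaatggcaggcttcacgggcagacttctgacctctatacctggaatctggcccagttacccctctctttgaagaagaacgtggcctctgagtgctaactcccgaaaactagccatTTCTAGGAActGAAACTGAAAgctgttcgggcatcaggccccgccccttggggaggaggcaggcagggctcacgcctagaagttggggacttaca

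Irgm1 (chr11:48871371-48871670, minus strand): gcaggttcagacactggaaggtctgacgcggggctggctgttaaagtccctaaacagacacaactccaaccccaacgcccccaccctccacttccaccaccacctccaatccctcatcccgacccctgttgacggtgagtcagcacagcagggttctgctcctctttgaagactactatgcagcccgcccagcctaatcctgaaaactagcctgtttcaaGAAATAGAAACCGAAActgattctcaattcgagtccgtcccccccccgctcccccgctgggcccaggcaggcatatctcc

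Stat2 (chr10:128270248-128270547, plus strand): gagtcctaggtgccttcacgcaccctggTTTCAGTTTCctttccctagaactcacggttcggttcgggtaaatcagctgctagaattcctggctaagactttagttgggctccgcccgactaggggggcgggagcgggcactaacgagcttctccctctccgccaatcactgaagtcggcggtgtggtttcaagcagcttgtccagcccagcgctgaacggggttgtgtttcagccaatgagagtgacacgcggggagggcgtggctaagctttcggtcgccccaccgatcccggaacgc

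H2-T23 (chr17:36032652-36032951, minus strand): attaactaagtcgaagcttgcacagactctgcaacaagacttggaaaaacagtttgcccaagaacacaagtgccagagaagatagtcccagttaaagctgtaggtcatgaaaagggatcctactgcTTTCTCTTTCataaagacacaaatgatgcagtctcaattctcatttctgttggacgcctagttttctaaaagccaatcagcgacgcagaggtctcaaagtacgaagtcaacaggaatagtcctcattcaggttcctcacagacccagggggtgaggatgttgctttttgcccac

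Lca5 (chr9:83441050-83441349, minus strand): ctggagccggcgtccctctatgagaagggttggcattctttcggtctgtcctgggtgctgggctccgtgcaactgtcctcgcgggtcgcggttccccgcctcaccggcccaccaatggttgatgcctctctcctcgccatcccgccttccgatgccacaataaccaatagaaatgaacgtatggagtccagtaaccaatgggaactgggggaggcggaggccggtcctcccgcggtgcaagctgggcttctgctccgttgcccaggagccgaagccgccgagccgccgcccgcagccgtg

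The windows of Irgm2 and Igtp, neighbouring GTPase genes on chromosome 11, hold a GAS match directly followed by an ISRE match, and that of Irgm1 holds 2 overlapping ISRE matches. Stat2, a partner of Irf9 in type I signalling, and H2-T23, a non-classical class I heavy chain, each hold 1 ISRE match. The window of Lca5 holds neither motif. Over all 32851 windows of the table, 1131 (3.44%) held an ISRE match and 2726 (8.3%) a GAS match. Of the genes defined in the next paragraph as following the split, 4 of the 7 with a window among 9 on the interferon lists had an ISRE match, as had 1 of 9 with a window among 12 MHC genes and 0 of 13 with a window among 14 on neither kind of list. In windows, the unit of the background, these were 4 of 8, 1 of 11 and 0 of 21, and 0 of 21 is too few to set apart from 3.44%. The interferon lists were drawn up largely from interferon-inducible genes, so matches among them are no independent result. A match describes letters, not a bound site, and variants of the 2 motifs were not searched.

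Which non-MHC genes followed the split in IP was first read from genes whose 9 high libraries all lay above the 9 low ones. Among 11291 genes with a mean of at least 5 CPM over the 18 IP libraries, 7 (0.062%) did so, and 0 did so in the other direction. H2-D1, which set the order, is one of them, and Cd74, H2-T23 and Tap1 also belong to antigen presentation. The remaining 3 were Irgm2, Ube2l6 and Lca5. Because the order came from the same libraries, these counts are descriptions.

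Irgm2 is an immunity-related GTPase of the interferon response, and it had the widest separation of the 3. Its IP level was 112, 100.5, 96.0, 25.03, 14.7, 43.3, 15.2, 9.48 and 9.47 CPM in the high mice and 1.11, 2.86, 1.45, 0.96, 2.49, 4.04, 1.01, 5.96 and 1.91 CPM in the low mice. The low mice lay within the range of non-dependent mice (0.704 to 5.74 CPM), apart from J10. The fitted IP difference was 3.38 on the log2 scale, and within batches it was 4.79 in I, 2.17 in J and 2.78 in L on the log2(CPM + 0.5) scale. In input Irgm2 was 28.2, 15.3, 21.4, 7.57, 3.57, 9.88, 7.86, 5.10 and 2.08 CPM against 2.08, 2.03, 1.29, 1.46, 2.07, 1.32, 1.91, 3.16 and 0.96 CPM. I09 was the only high mouse under a low mouse, J10, beside a near tie with I15, and edgeR gave 1.85 ± 0.58 (log2, SE) at an adjusted p of 0.846. In the GENCODE annotation Irgm2 (chr11:58199618-58222782, plus strand) overlaps Igtp (chr11:58199556-58207591, plus strand), so reads of the 2 could be shared, depending on a counting method not given in the sources used here.

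Ube2l6 is the enzyme that conjugates the interferon-induced modifier ISG15 to proteins. Its IP level was 47.9, 16.03, 30.8, 13.2, 9.87, 14.9, 7.50, 7.57 and 11.2 CPM in the high mice and 3.94, 4.60, 5.62, 3.14, 2.03, 3.72, 3.64, 3.42 and 1.91 CPM in the low mice. Separation was clear in the IP, with a fitted log2 difference of 1.62. In input the sets overlapped, with 1.88 to 17.9 CPM (median 6.42) in the high mice and 1.99 to 5.93 CPM (median 3.71) in the low mice. The edgeR log2 fold change in input was 0.24 ± 0.47 (SE, adjusted p = 0.951), and it ranged from -0.20 (without I15) to 0.76 when each mouse was left out.

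Lca5 encodes lebercilin, a protein of the ciliary axoneme, and differs from the others in pattern. Its IP level was 7.27, 6.71, 8.09, 12.2, 8.94, 6.90, 12.3, 6.95 and 7.77 CPM in the high mice and 4.72, 5.85, 2.67, 3.20, 5.82, 5.09, 5.94, 3.95 and 5.95 CPM in the low mice. The 3 mice with the most H2-D1 were not the highest for Lca5, so the level separates the sets without following the gradient. Non-dependent mice covered 3.54 to 13.95 CPM (median 8.39) and naive mice 2.36 to 11.7 CPM (median 6.25), which span both sets. In input the high mouse was above the low one in 42 of 81 pairs, with an edgeR log2 fold change of -0.19 ± 0.44 (SE, adjusted p = 0.956).

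A looser description counted genes whose high mouse exceeded the low mouse in at least 77 of the 81 pairs, a threshold chosen after the data were seen. In IP 35 genes (0.31% of 11291) met it, 12 on the MHC lists, 9 on interferon lists and 14 on neither, and 1 gene (0.00886%) met it in the other direction. The 9 interferon genes were Irgm2, Irgm1, Igtp, Gbp6, Irf7, Irf9, Stat2, Ifi27l2a and Lgals3bp. The 14 others were Ube2l6, Lca5, Pnpla6, Orc3, Exosc10, Zbtb5, Cd274, Cnot2, Strbp, Thrap3, Mtus1, Rnf31, Hs6st2 and the antisense transcript Dlx6os1. Among these, Cd274 encodes PD-L1, a ligand that restrains T cells and is itself interferon-inducible. Rnf31 lies next to Irf9 on chromosome 14 in the same orientation. The gene lower in the high mice was Ptpmt1, a mitochondrial phosphatase of cardiolipin synthesis, with 55.7 to 71.7 CPM against 68.4 to 81.9 CPM.

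The interferon genes differed by at least 1.08, and most of the others by less, with Ube2l6, Lca5 and Cd274 as exceptions. With 1 mouse left out, the fitted IP log2 difference was 1.25 to 2.08 for Ube2l6 and 1.19 to 1.39 for Lca5. On the interferon lists, the fitted IP log2 difference was 2.69 for Igtp, 2.30 for Gbp6, 2.06 for Irgm1, 2.07 for Irf7, 1.31 for Irf9, 1.17 for Stat2, 3.01 for Ifi27l2a and 1.08 for Lgals3bp. Outside the lists, it was 1.22 for Cd274 and 0.72 for Rnf31, and at or under 0.57 for Pnpla6 (0.57), Orc3 (0.39), Exosc10 (0.34), Zbtb5 (0.37), Cnot2 (0.25), Strbp (0.06), Thrap3 (0.20), Mtus1 (0.36), Hs6st2 (0.11) and Dlx6os1 (0.44). Irgm1, a regulator of the other immunity-related GTPases, was 422, 310.3, 296, 89.0, 47.8, 137, 55.9, 39.7 and 27.2 CPM in the IP of the high mice and 27.7, 26.3, 18.8, 11.9, 18.8, 16.6, 14.3, 18.4 and 17.2 CPM in the low mice. Its only inversion was I09 under I15, both of batch I. Pnpla6, a phospholipase of membrane lipids, showed 15.5 to 27.2 CPM in the high mice against 9.79 to 16.6 CPM in the low mice, a near separation with a small fold.

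**Figure D2:**
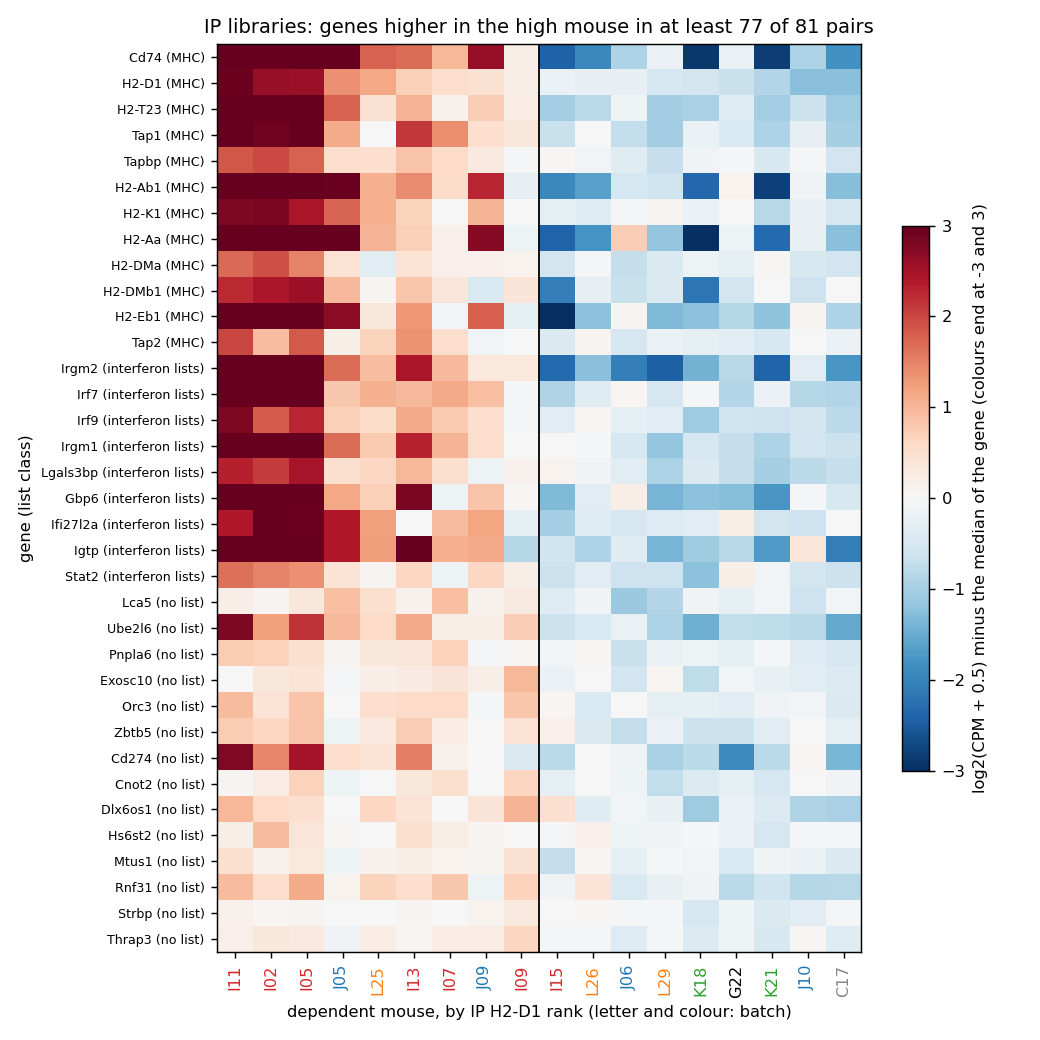
Log2(CPM + 0.5) of each of the 35 genes minus its median over the 18 dependent IP libraries, with genes in rows by list class and mice in columns by IP H2-D1 rank (letter and colour show the batch, the line marks the split). MHC and interferon genes are darkest in I11, I02 and I05 of batch I and fade towards I09. Most rows on neither kind of list show small differences spread over the high mice, while those of Ube2l6, Lca5 and Cd274 are larger.

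In the paired input libraries the 2-group test called no gene. Of 16998 genes, 0 were higher and 0 lower at an adjusted p of 0.05 with edgeR (0% each), while 958 (5.64%) had an unadjusted p under 0.05, 424 higher and 534 lower. Leaving out 1 mouse moved that number to 399 without I15, 1440 without L26 and 1932 without L25. Without the batch term 13 genes were called higher (0.0765%) and 0 lower. The limma voom test called 0 and DESeq2 called 2, Gbp9 and Iigp1, both GTPases of the interferon response. The 6 non-MHC genes with the smallest p were Gbp9, Epn1, Camta2, Anxa3, Tmem132a and Zfp595. For Gbp9 edgeR gave 4.84 ± 0.81 (log2, SE) at an adjusted p of 0.282. Its input level was at most 0.442 CPM in the low mice other than G22 (1.62 CPM). Gbp9 thus passed the count filter mainly through the high mice, which favoured a difference in advance. The other 5 had log2 fold changes of -0.52 (Epn1, an endocytic adaptor), -0.49 (Camta2, a transcription activator), 1.003 (Anxa3, an annexin), -0.74 (Tmem132a) and 2.55 (Zfp595), each with an adjusted p of 0.846. Without the batch term the input value of Camta2 was 0.051 and that of Tmem132a 0.61, so their direction depends on that term.

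Described by order alone, the input libraries showed 4 of 11539 genes (0.0347%) with all high mice above all low mice, namely Iigp1, Gbp2, H2-Aa and H2-T23. At the looser count of 77 of 81 pairs there were 15 (0.13%), 10 of them MHC genes, 4 on interferon lists (Gbp2, Iigp1, Irgm1, Irgm2) and 1 on neither (Paqr5, a membrane progestin receptor), with Sirt1, a deacetylase, in the other direction (0.00867%). Of the 35 genes so counted in IP, 10 were also counted in input. Both counts use the same split and the same tissue, so this overlap is a description. Gbp2 is a guanylate-binding protein often used to mark reactive astrocytes. Its input level was 36.0, 17.1, 26.9, 3.54, 7.87, 5.81, 6.36, 3.35 and 4.48 CPM in the high mice and 0.51, 1.41, 0.29, 2.43, 1.93, 1.82, 0.64, 2.63 and 1.10 CPM in the low mice. In IP the high mouse I09, at 2.92 CPM, fell among the low mice, so for Gbp2 the separation was complete in the whole tissue and not in the astrocyte fraction.

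A second reading of input replaced the 2 groups by the gradient, with log2 of IP H2-D1 as a continuous term beside batch and sex. This alternative called 46 of 16998 genes higher per doubling of IP H2-D1 (0.271%) and 0 lower (0%) with edgeR (682 genes, 4.01%, at an unadjusted p under 0.05), 16 of the higher ones being MHC genes, 18 on interferon lists and 12 on neither. Leaving out 1 mouse gave 24 (without I11) to 46 calls. Without the 7 mice of batch I the same model called 0 genes (778 at an unadjusted p under 0.05), and without the 3 highest mice, I11, I02 and I05, it called 0 (419 unadjusted). Both settings leave fewer mice to test, and both were chosen after the data were seen. H2-D1 itself is one of the 16 MHC genes. Its input level, which comes from the same tissue as the term, changed by 0.87 ± 0.08 per doubling (log2, SE) and is given without a test. Input Cd74 changed by 1.74 ± 0.18 (adjusted p = 0.000333 with edgeR) and Psmb8 by 0.81 ± 0.14 (adjusted p = 0.0179).

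Of the 23 non-MHC genes counted in IP, 7 were called with this continuous term, namely Irgm1, Irgm2, Igtp, Irf7, Irf9, Ifi27l2a and Lgals3bp, all on interferon lists. Over all genes the term called 46 of 16998 (0.271%). The count and the term both rest on IP H2-D1 of the same mice, so this overlap was favoured in advance and is a description. Irgm1 changed by 0.99 ± 0.11 (log2 per doubling, SE; adjusted p = 0.000227 with edgeR), Lgals3bp, a secreted galectin-binding protein, by 0.68 ± 0.09 (adjusted p = 0.00069) and Irf7 by 0.97 ± 0.17 (adjusted p = 0.0164). Of the 14 genes on neither kind of list, 0 were called, with Ube2l6 at 0.48 ± 0.13 (adjusted p = 0.325 with edgeR) and Rnf31 at 0.17 ± 0.09 (adjusted p = 1). Among calls outside the MHC and interferon lists were C4b, a complement component made by astrocytes (0.63 ± 0.09), and Ctss, a microglial protease of MHC class II processing (0.51 ± 0.08). The chemokine Ccl5 (1.14 ± 0.23) and C1qb, C1qc, Cd52, Ly86, Pld4, Lgals9, Tm4sf1, Gm4951 and AW112010 were called too. Some of these calls are on the complement, chemokine or microglia lists described below. C1qb, C1qc, Ctss, Cd52, Ly86 and Pld4 are, in brain, known chiefly from microglia and other myeloid cells.

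The lists below are described by the members that passed the count filter. A member near 0 in the low mice passed through the high mice and had to differ, so medians and counts above 0 are descriptions that support no direction. Over all genes the continuous term called 46 of 16998 (0.271%), and 0 without batch I or without the 3 highest mice. The calls of list members given below carry that limit. MHC class I genes without H2-D1, which set the order, had a median fitted IP log2 difference of 1.64 (11 of 12 above 0), beside -0.01 over all 16543 fitted genes, of which 47.6% were above 0. In input their median was 1.202 (11 of 12 above 0; 6 called with the continuous term), beside 0.01 over all genes, of which 51.2% were above 0. B2m, the light chain that every class I molecule needs, was 2348, 4023, 1875, 1864, 659, 578, 526.3, 912 and 396 CPM in the IP of the high mice and 335, 329.6, 561, 294, 461, 707, 388, 485 and 485 CPM in the low mice. The sets overlapped because L25, I13, I07 and I09 lay within the low range, and G22 had the highest low value. H2-K1, another classical heavy chain, ran from 125 to 897 CPM against 70.7 to 134 CPM and was higher in the high mouse in 79 of 81 pairs. H2-Q6, H2-Q7 and other H2 genes are close paralogs of each other, and their counts are uncertain where reads could map to several.

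The MHC class II list had a median of 2.38 in IP (8 of 8 fitted members above 0) and 1.81 in input (8 of 8; 5 called with the continuous term). Without I15 the input median was 0.53. H2-Aa, a class II alpha chain, was 81.3, 101, 90.5, 47.5, 10.3, 8.20, 5.41, 35.2 and 4.30 CPM in the IP of the high mice and 0.52, 1.04, 8.34, 1.86, 0, 4.31, 0.55, 4.07 and 1.73 CPM in the low mice. J06 reached the level of I13, and K18 had no count. The proteasome and peptide-loading list had a lower median, 0.75 in IP (10 of 12 above 0) and 0.21 in input (9 of 12; 4 called with the continuous term), and 0.44 in IP without I15. Within it, Tap1, which pumps peptides, had 7.45 to 92.7 CPM against 3.33 to 7.34 CPM in IP, and Psmb9, the inducible subunit whose gene starts head to head with Tap1 on chromosome 17, had 7.38 to 151 CPM against 5.71 to 19.8 CPM.

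Interferon-inducible GTPases had a median of 2.69 in IP (15 of 15 fitted above 0) and 1.89 in input (13 of 13; 4 called with the continuous term). Of the 16 members, 10 had a mean of at least 5 CPM in IP, and members near 0 in most low mice, such as the 3 named next, passed the filter through the high mice. Ifi47 had a median of 4.86 CPM in high and 0.173 CPM in low IP libraries, where it reached at most 1.57 CPM. Tgtp2 had medians of 5.24 and 0.236 CPM and at most 0.848 CPM in a low mouse. Gbp4 had medians of 3.81 and 0.111 CPM, but the low mice L26 (3.11 CPM) and L29 (2.37 CPM) lay above the high mouse of their batch, L25 (1.44 CPM). The type I interferon-stimulated list had a median of 0.87 in IP (32 of 34 above 0) and 1.01 in input (31 of 32; 11 called with the continuous term). Bst2, a membrane protein that tethers virus particles, ran from 6.89 to 209 CPM against 5.42 to 21.7 CPM in IP. Ifit2, an RNA-response gene on the same list, differed far less, with a fitted log2 difference of 0.61 in IP and an edgeR log2 fold change of 0.41 ± 0.35 (SE, adjusted p = 0.879) in input.

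Among signalling genes, the factors Irf7, Irf9 and Stat2 had fitted IP log2 differences of 2.07, 1.31 and 1.17. The list of receptors, JAKs, STATs and IRFs had a median of 0.34 in both IP (14 of 19 above 0) and input (11 of 19; 3 called with the continuous term), and of 0.047 and 0.070 without I15. The receptor chains Ifnar1 and Ifnar2 had fitted IP differences of -0.07 and -0.16. No interferon gene on the list of 8 was abundant enough to be fitted in either fraction, and Ifng and Ifnb1 had no count in any of the 18 IP libraries. In input the list summed to 0.244 CPM in the high mouse J05 and to 0 in every other dependent mouse. Chemokines of the interferon response were at low levels. Cxcl9 had 0.311 to 8.67 CPM in high IP libraries against 0 to 1.17 CPM in low ones, and 0 in every non-dependent and naive IP library. Cxcl10 had 0.165 to 29.7 CPM against 0 to 3.34 CPM, and in batch L the high mouse (1.21 CPM) lay under both low mice (1.45 and 1.28 CPM). Cxcl16 also overlapped, with 1.46 to 7.37 CPM against 0.283 to 3.02 CPM. Over the list of NF-kB factors, chemokines and cytokines the median was 0.04 in IP (9 of 15 above 0) and 0.26 in input (12 of 16; 1 called with the continuous term), or 0.135 and 0.098 without I15. The complement list had a median of 1.10 in IP (10 of 13 above 0) and 0.42 in input (8 of 12; 3 called with the continuous term), and 0.71 in IP without J05.

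**Figure D3:**
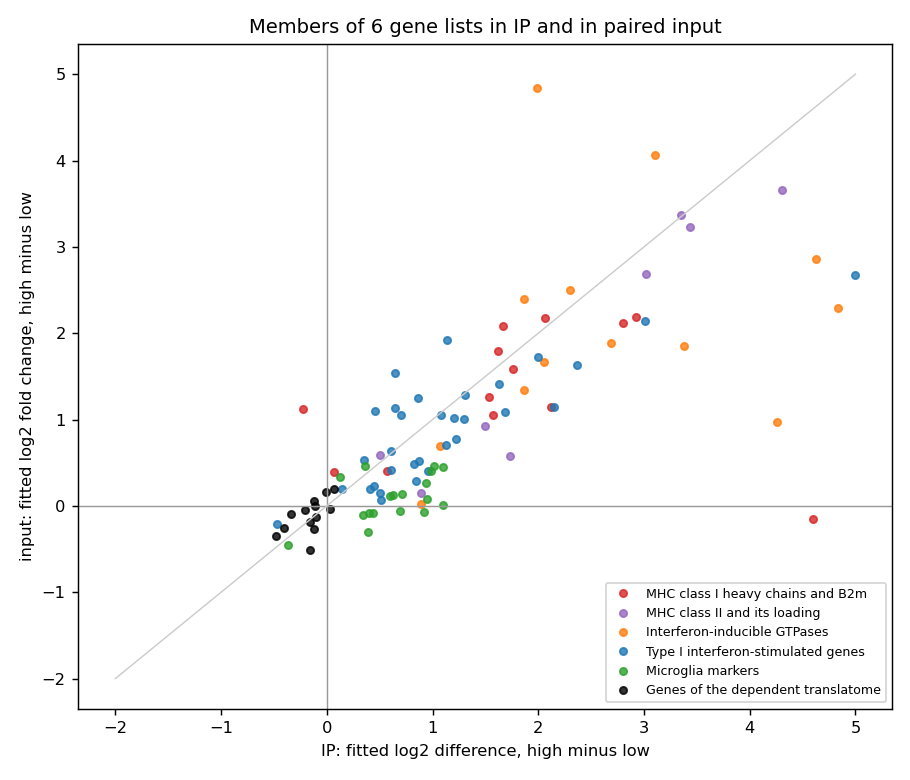
Fitted log2 difference between high and low mice in IP (x axis) and log2 fold change in the paired input (y axis) for members of 6 gene lists, with a line of equality. GTPases and MHC genes spread to the upper right, the microglia markers lie right of 0 in IP and around 0 in input, and the dependence genes sit near the origin. H2-Q2 is the MHC gene at 4.60 in IP and -0.15 in input.

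The list of genes from the dependent translatome, which was drawn from earlier results on these data, had a median of -0.12 in IP (2 of 13 above 0) and -0.10 in input (3 of 13; 0 called with the continuous term). Its summed IP level was 12243 to 21305 CPM (median 14652) in high and 12073 to 21225 CPM (median 20272) in low mice, so the sets covered the same range. The medians ranged from -0.21 (without J06) to -0.08 (without L29) in IP and from -0.18 (without L25) to 0.01 (without J05) in input. Cebpb, a factor of the C/EBP family, had 21.4 to 101 CPM (median 38.4) in high and 18.9 to 65.9 CPM (median 28.8) in low IP libraries, beside 11.1 to 20.7 CPM in non-dependent and 4.65 to 15.2 CPM in naive ones. Both dependent sets were mostly above both control sets, and the fitted difference between high and low was -0.21. Manf, an endoplasmic reticulum stress gene, had medians of 163 CPM in high, 175 in low, 90.3 in non-dependent and 106 in naive IP libraries, with a fitted log2 difference of 0.03 between high and low. Rgs4, a regulator of G-protein signalling, had medians of 64.1, 52.8, 96.6 and 96.8 CPM in the same order, and a difference of -0.11. Fabp7, a fatty acid-binding protein of radial glia and astrocytes, had medians of 139, 164, 203 and 466.4 CPM and a difference of 0.07.

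Gfap, the filament protein most used to mark reactive astrocytes, had 263 to 1479 CPM (median 1023) in high and 273 to 2326 CPM (median 429) in low IP libraries, with a fitted log2 difference of -0.23. The highest Gfap of all 18 was in I15, a low mouse of batch I, and the difference within batches was -1.12 in I, -0.29 in J and 0.54 in L. Srxn1, an Nrf2 target, had medians of 182 and 94.1 CPM in high and low mice, whereas its log2 difference fitted with the batch term was -0.11. Cholesterol synthesis genes had a median of -0.37 in IP (1 of 15 above 0) and -0.28 in input (0 of 15 above 0). Without I15 these were -0.065 (3 of 15) and -0.053 (5 of 15), and without L25 -0.62 and -0.45. I15 had the highest summed IP level of the list, 2220 CPM, against 762 to 1240 CPM in the other low mice. Hmgcs1, which makes the precursor of mevalonate, had 131 to 335 CPM against 108 to 340 CPM in IP, so the sets covered the same range, with differences within batches of -0.98 in I, -0.26 in J and 0.47 in L. The pan-reactive, C/EBP, endoplasmic reticulum, integrated stress, Nrf2, metallothionein, glucocorticoid and clock lists had medians between -0.12 and 0.29 in IP.

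**Figure D4:**
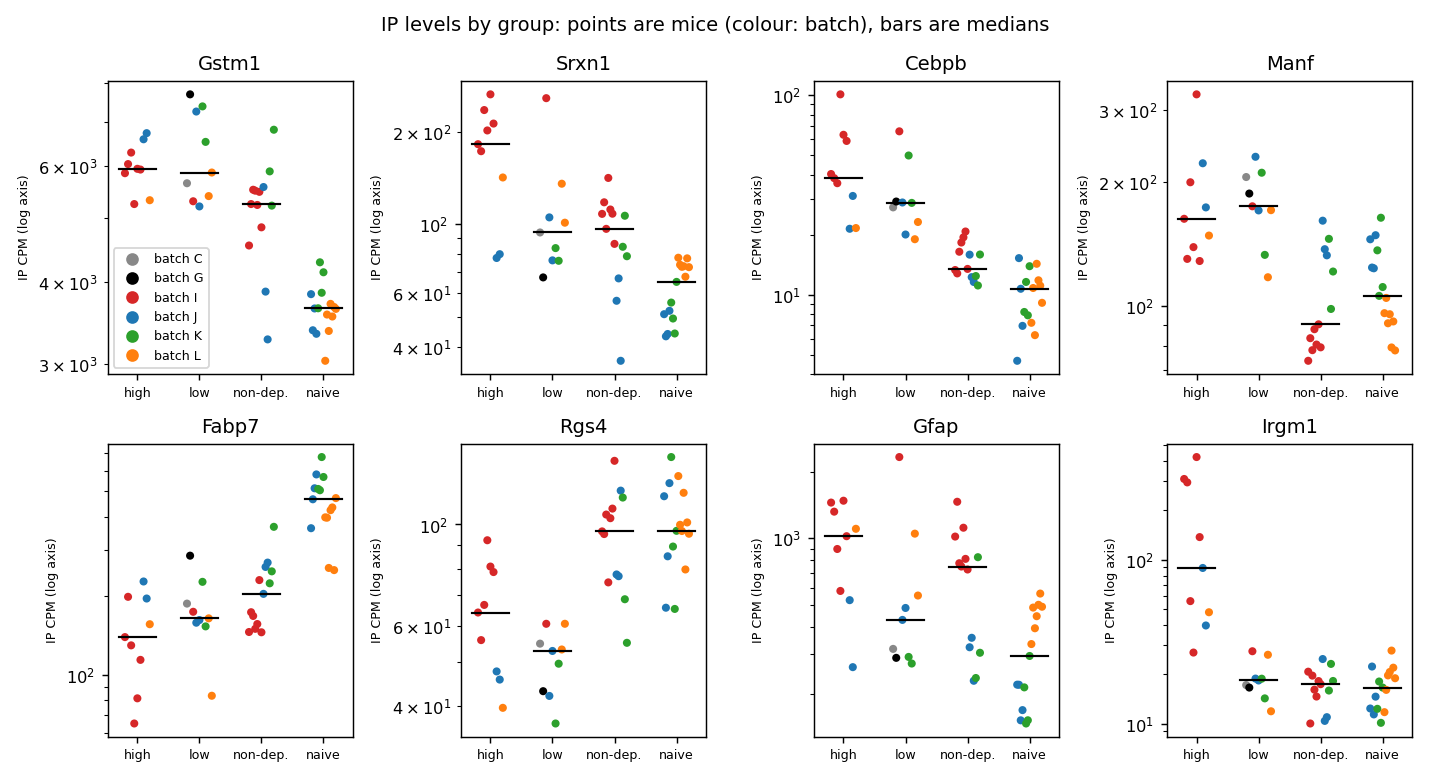
IP CPM (log axis) of 8 genes in high (9), low (9), non-dependent (13) and naive (15) mice, with 1 point a mouse coloured by batch and a bar at the median. For Cebpb, Manf, Rgs4 and Fabp7 the medians of both dependent sets lie on the same side of the naive median. Single dependent and naive mice overlap for Manf, Rgs4 and Fabp7. Irgm1 of 8 high mice lies above all other mice shown and that of I09, at 27.2 CPM, among them.

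Each set was also compared in input with mice that drank without CIE. In a model of the 47 input libraries of batches I to L, 97 of 19691 genes were higher in high than in non-dependent mice (0.493%) and 6 lower (0.0305%) with edgeR, 21 of the higher ones on MHC lists, 30 on interferon lists and 46 on neither. For the 7 low mice of those batches 0 genes were higher and 0 lower (0% each), with 1159 (5.89%) at an unadjusted p under 0.05, and DESeq2 called 3 and 2. The high mice were picked for a high H2-D1 level, which favours MHC genes and all genes that move with them, interferon genes included, in the first comparison. The low mice were picked for a low level, which works against such calls in the second, with 7 mice in place of 9. The 2 comparisons also share their control libraries, so the difference between their numbers of calls is not a result. For Cd74 edgeR put the high mice 5.66 ± 0.46 (log2, SE; adjusted p = 6.86e-11) above non-dependent mice, and the low mice 1.24 ± 0.56 (adjusted p = 0.839) above them. Irgm1 had 2.55 ± 0.28 (adjusted p = 2.87e-08 with edgeR) and 0.35 ± 0.34 (adjusted p = 0.939). Fitted inside this larger model, the high and low mice themselves differed in 22 genes, all higher in the high mice (0.112%), an alternative chosen after the data were seen. C4b had 1.60 ± 0.19 (adjusted p = 1.71e-07 with edgeR) in the high mice and 0.63 ± 0.24 (adjusted p = 0.767) in the low mice. Its IP level was 120.3 to 496 CPM in high, 87.8 to 160.3 in low, 61.4 to 131 in non-dependent and 43.3 to 99.9 CPM in naive mice.

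Markers of other cell types moved with the split in part. Microglia markers summed to 277 to 973 CPM (median 446) in high and 253 to 369.8 CPM (median 313) in low IP libraries, and 17 of 18 had a fitted IP difference above 0, with a median of 0.66 (0.34 without J05). The sum was highest in I02 (973 CPM) and J05 (773 CPM), not in I11, the mouse with the most H2-D1. In input the same sum was 591 to 1605 CPM (median 856) against 645 to 822 CPM (median 722), with a median log2 fold change of 0.10, 11 of 18 above 0 and 2 called with the continuous term (-0.02 without J06). P2ry12, a purinergic receptor that defines homeostatic microglia, had 12.98 to 46.3 CPM in high and 8.39 to 16.2 CPM in low IP libraries, but 16.9 to 39.6 against 22.03 to 39.1 CPM in input. Its fitted log2 difference was 0.92 in IP, and its edgeR log2 fold change in input was -0.07 ± 0.18 (SE, adjusted p = 0.97). In bulk samples fewer cells of a type and less RNA per cell cannot be told apart. The part of microglial RNA in the IP differences was not tested.

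Border macrophage and monocyte markers summed to 14.4 to 62.3 CPM in high against 6.45 to 20.9 CPM in low IP libraries, with I02 the highest. Lyz2, a lysozyme of myeloid cells, had a median of 15.5 CPM in high and 6.41 CPM in low IP libraries. T cell and NK cell markers summed to 23.02 to 43.7 CPM against 15.4 to 31.9 CPM, mostly from Cd4 (medians 15.5 and 14.4 CPM), while Ncr1, Klrb1c and Gzma were at 0 in all 18 IP libraries. The medians of this sum were 27.4 CPM in high, 20.2 in low, 32.6 in non-dependent and 29.3 in naive mice, so the high mice did not exceed the controls. Cd3e, the chain that defines T cells, had no count in any low IP library and at most 0.391 CPM in a high one. B cell markers summed to 5.78 to 22.1 CPM against 2.54 to 12.6 CPM, with Pax5 at 0 throughout, and dendritic cell markers to 1.71 to 9.25 CPM against 1.38 to 5.76 CPM. The part of these cells in the result was not tested.

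Astrocyte markers summed to 60102 to 66874 CPM in high and 61738 to 76589 CPM in low IP libraries, with a median fitted log2 difference of -0.19 and 2 of 20 members above 0. Neuron markers summed to 1233 to 1743 CPM against 1096 to 2202 CPM in IP, with all 10 fitted differences below 0 (median -0.29) and a median of -0.32 in input. I15 had the highest neuron sum in both fractions (2202 and 5949 CPM), and without it the medians were -0.117 (3 of 10 above 0) in IP and -0.130 (3 of 10) in input. In batch L, Snap25, a synaptic protein, was 0.37 higher in the high mouse in IP. Ependymal and choroid markers ran from 30.04 to 151 CPM in high and 19.4 to 180.1 CPM in low IP libraries, with a median fitted log2 difference of 0.81. The lowest sum was in I15, and Ccdc153, a gene of motile cilia, differed in IP by 4.15 in batch I, 0.55 in J and 1.07 in L. Without I15 the list median was 0.57 in IP, and in input 0.63 in place of 1.10. Globin transcripts of residual blood summed to 70.1 to 440.5 CPM in high and 241 to 2351 CPM in low input libraries, with a median log2 fold change of -1.12 (-0.50 without J06, -1.69 without L25). Oligodendrocyte, endothelial and medium spiny neuron markers had median IP differences of 0.21, 0.17 and 0.25, which were 0.036, 0.024 and -0.032 without I15.

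**Figure D5:**
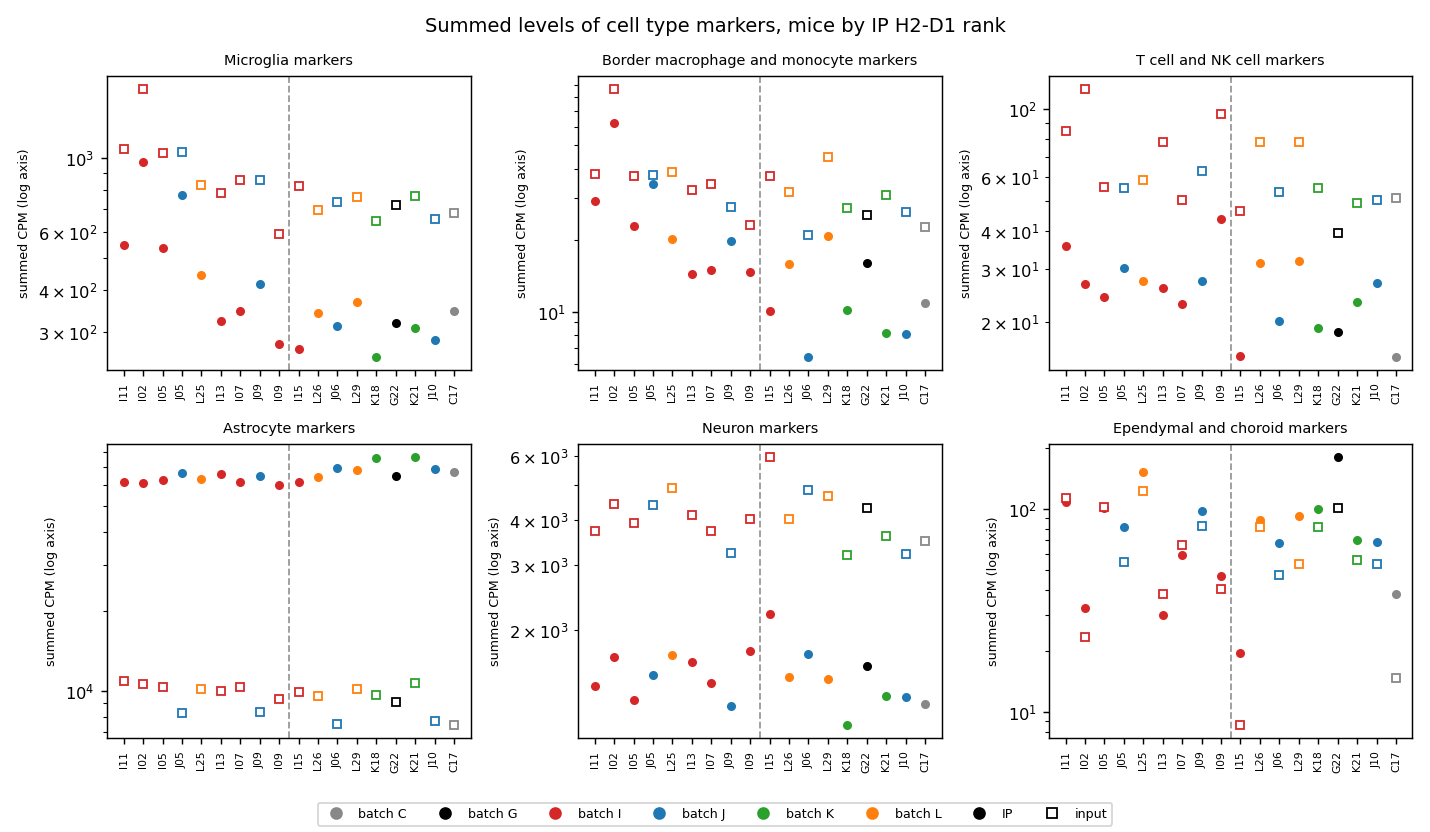
Summed CPM (log axis) of 6 marker lists in the IP (filled circles) and input (open squares) libraries of the dependent mice, ordered by IP H2-D1 and coloured by batch, with the split dashed. Microglia and border macrophage sums in IP are highest in I02 and J05, while T cell, neuron and ependymal sums overlap between the 2 sets.

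Depth was similar in both sets. IP libraries held 17830455 to 25597741 counts in high and 15612653 to 27146790 in low mice, and input libraries 14905343 to 22626988 and 13299157 to 22651860. Mitochondrial transcripts took 0.490% to 1.28% and 0.598% to 1.02% of IP counts, and 6.85% to 15.99% and 7.24% to 17.9% of input counts. The astrocyte markers listed above were far above their input levels in every IP library, with input sums of 7450.3 to 10895 CPM.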

How the data were processed

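The values analysed were raw counts of reads per gene, which the authors deposited in 1 table with a column for each library. Per the submitters' processing notes, STAR 2.7.10b, Trimmomatic 0.39, FastQC 0.11.9 and the genome GRCm38 were named. How genes were counted (tool, annotation, strand) was not given in the sources used here, and reads of paralogs, overlapping genes and antisense partners may be shared. Of 55471 features, 55144 matched a symbol of the GENCODE M21 annotation.

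CPM is the count over the library total. Dependent IP libraries were ranked by H2-D1 CPM, and TMM-scaled values put the same 9 in the upper group. Input libraries were tested in R 4.3.3 with edgeR 4.0.16 (TMM, genes kept by filterByExpr at its defaults, quasi-likelihood F test with robust dispersions, terms for batch, sex and state, Benjamini-Hochberg adjusted p at or under 0.05). IP libraries were given fitted log2 differences and no test, because they set the groups. Standard errors came from the F statistic. Alternatives were DESeq2 1.42.0, limma 3.58.1 voom, other model terms, no count filter, and leaving out each mouse. Figures used matplotlib 3.10.9. The input model was also run on simulated counts with the same spread for every gene and changes only in well-counted genes. Genes near 0 or with a wide spread were not covered by it.

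Genes named were the 3 state markers, non-MHC genes with no overlap in IP and a mean of at least 5 CPM, the 6 non-MHC input genes with the smallest p, up to 4 members per list with the largest IP difference and its first members. Others were chosen after their values were seen, among them the genes counted by pairs, those called with the continuous term, Ptpmt1, Sirt1 and H2-Q2. The members and the 32 lists (437 genes, 436 matched) were chosen with earlier results of these data known. The numbers of the pairs rule, the continuous model without mice or batches, the contrast inside the larger model and the class I list without H2-D1 were added after seeing the data.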

Additional observations from a re-analysis of the deposited data

Results flagged for a closer look

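Among 48 groups of 9 mice checked for 1 value far from the rest, 4 held one, and chance flags about 1 in 20. Gbp9, a guanylate-binding protein with few counts, accounts for 3 of them. In the low mice its IP level was highest in J10, at 2.24 CPM, with K21 next at 0.461 CPM. In the high mice its input level was lowest in J09, at 0.268 CPM, with I13 next at 1.75 CPM. In the low mice its input level was highest in G22, at 1.62 CPM, with C17 next at 0.442 CPM. Zfp595, a zinc finger gene, had its lowest input level among high mice in I13, at 0.438 CPM, with I05 next at 1.19 CPM.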

How the results depend on the processing

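No paired analysis was possible because the high and low libraries come from different mice, and the IP and input of a mouse share the ranking only through that mouse. The 2-group input test called 0 genes with each mouse left out (range 0 to 0), without the sex term, with limma voom and in the 3 batches with both states. It called 13 genes higher without the batch term, 1 with no count filter, 2 with DESeq2 and 22 inside the fit of all input libraries of batches I to L. The continuous term called 46 higher, 24 to 46 with 1 mouse left out, 86 higher and 3 lower without the batch term, 0 without batch I and 0 without the 3 highest mice. Low against non-dependent mice gave 1 higher gene without the batch term, and 3 higher and 2 lower with DESeq2. High against non-dependent mice gave 78 higher and 3 lower without the batch term, 130 higher and 21 lower with DESeq2, and 137 higher and 8 lower with no filter. Genes with no overlap in IP numbered 11 in the batches with both states, 7 to 17 above (17 without I09) and 0 to 1 below with 1 mouse left out, and 35 above and 1 below by the pairs rule.

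Directions reversed without the batch term for IP Epn1 (0.088), Camta2 (0.093) and Tmem132a (0.90), and for input Camta2 (0.051) and Tmem132a (0.61). With 1 mouse left out, input Ube2l6 ranged from -0.20 to 0.76 and Lca5 from -0.50 to 0.021 (0.0024 without J05). The cause was not tested. Genes with a few counts per library, such as Gbp9, are limited by depth.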
